A study of Drosophila melanogaster with 2 samples.

Results

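The microRNA genes of Drosophila melanogaster were examined for where a tagged protein lay on chromatin relative to them. They were taken as every gene of the Ensembl release 115 annotation of the dm6 genome whose symbol starts with mir-, which gave 262 genes. Of these, 260 lie on the main chromosome arms, among 17683 annotated genes there, and were analysed. The other 2 lie on the ribosomal DNA scaffold and were not analysed. Chromatin immunoprecipitation and sequencing (ChIP-seq) had been run on 1 group of 2 biological replicates, numbered 1 and 3. Each was a sample of whole embryos of 0 to 24 h, males and females pooled, from the transgenic strain CG11398-GFP, which stably expresses a CG11398-eGFP fusion with the tag at the C terminus. The pull-down used an antibody to GFP. All embryonic tissues and stages were mixed, the promoter of the transgene is not given in the sources used here, and no untagged group was analysed here, so the data hold 1 group and no comparison between conditions.

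A microRNA is cut from a hairpin inside a longer primary transcript, first in the nucleus by Drosha with Pasha and then in the cytoplasm by Dicer-1. The mature strand is held by an Argonaute protein and pairs with messenger RNAs mainly through its seed, the bases just after the 5′ end, which lowers their translation and stability. The annotated start of a microRNA gene is therefore the 5′ end of its hairpin, and the transcription start site (TSS) of the primary transcript can lie far upstream or be that of a host gene. For most other genes the annotated start is a TSS, so windows around these kinds of start are not windows around the same kind of site.

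The mature products of the microRNA genes that carry the results are shown first, 5′ to 3′ as RNA, with the seed (bases 2 to 8) in capitals. They were read from the Release 6 genome at RefSeq's coordinates. The first 3 genes have a peak within 500 bp of the hairpin, and the strand shown is the one on the 5′ side of each hairpin.
mir-4962: uUUCCCUCucucuguuuacauuga
mir-4949: cGGCACACucgcacacacaca
mir-9378: aGUGGAGUgagaccucgaguucgg
The next products, from the 3′ side, come from hairpins whose host genes have the strongest peaks. Both members of each pair share a seed.
mir-279: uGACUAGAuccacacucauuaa
mir-996: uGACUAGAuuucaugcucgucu
mir-92a: cAUUGCACuugucccggccuau
mir-92b: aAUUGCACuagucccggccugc
mir-2a-1: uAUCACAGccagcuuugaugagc
mir-2b-2: uAUCACAGccagcuuugaggagc
The bantam product, also from the 3′ side, and the mir-282 product, from the 5′ side, are shown because their non-coding hosts have peaks.
mir-ban: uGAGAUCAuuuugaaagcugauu
mir-282: uAGCCUCUacuaggcuuugucugu

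The DNA at 5 of the summits is shown as 101 bp centred on the summit, in dm6 coordinates from the Release 6 genome and in the direction of the microRNA gene. Capitals mark the mir-4962 hairpin in the first sequence and a CATATG word in the second, and the others hold no capitals.
mir-4962, chrX:3777334-3777434, + strand: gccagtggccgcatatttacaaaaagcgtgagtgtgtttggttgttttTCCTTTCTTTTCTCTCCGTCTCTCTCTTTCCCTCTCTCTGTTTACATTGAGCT
mir-9378, chr2L:10752054-10752154, - strand: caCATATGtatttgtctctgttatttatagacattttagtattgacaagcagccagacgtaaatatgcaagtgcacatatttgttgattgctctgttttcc
mir-279, chr3R:29214400-29214500, + strand: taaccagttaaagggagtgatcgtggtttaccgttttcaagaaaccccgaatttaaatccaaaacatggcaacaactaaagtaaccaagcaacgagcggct
mir-92a, chr3R:25647022-25647122, + strand: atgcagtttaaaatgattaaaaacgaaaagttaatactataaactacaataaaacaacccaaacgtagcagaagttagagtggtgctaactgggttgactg
mir-ban, chr3L:640633-640733, + strand: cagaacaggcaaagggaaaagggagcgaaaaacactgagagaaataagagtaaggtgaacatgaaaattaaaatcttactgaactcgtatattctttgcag

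Peaks close to microRNA hairpins were few. In the thresholded list of 2712 peaks, built by the authors from both replicates, 4 of the 260 microRNA genes (1.54%, exact 95% interval 0.421% to 3.89%) had a summit within 500 bp of the hairpin start, against 9.57% of the 17423 other genes at their annotated starts. Within 2 kb the count was 23 (8.85%, 5.69% to 13.0%), against 16.3% of other genes. Within 10 kb it was 94 (36.2%, 30.3% to 42.3%), against 40.9% of other genes. The share of other genes lay above the interval of the microRNA genes at 500 bp and at 2 kb, and inside it at 10 kb. These intervals count each gene alone, though clustered microRNA genes, which start within 10 kb of each other on 1 strand, share their surroundings. With 1 gene per cluster, 4 of 203 (1.97%) had a summit within 500 bp and 82 of 203 (40.4%) within 10 kb. The median distance to the nearest thresholded summit was 18712 bp for microRNA genes and 14365 bp for other genes. With the 2712 strongest regions of replicate 1 alone in place of the list, 8 microRNA genes (3.08%) had a summit within 500 bp, against 8.94% of other genes. These were the 4 above plus mir-2496, mir-275, mir-967 and mir-ban. With those of replicate 3 alone 3 did (1.15%), without mir-14, against 9.94% of other genes. A window of 1000 bp gave 12 microRNA genes (4.6%), against 12.1% of other genes.

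**Figure D1:**
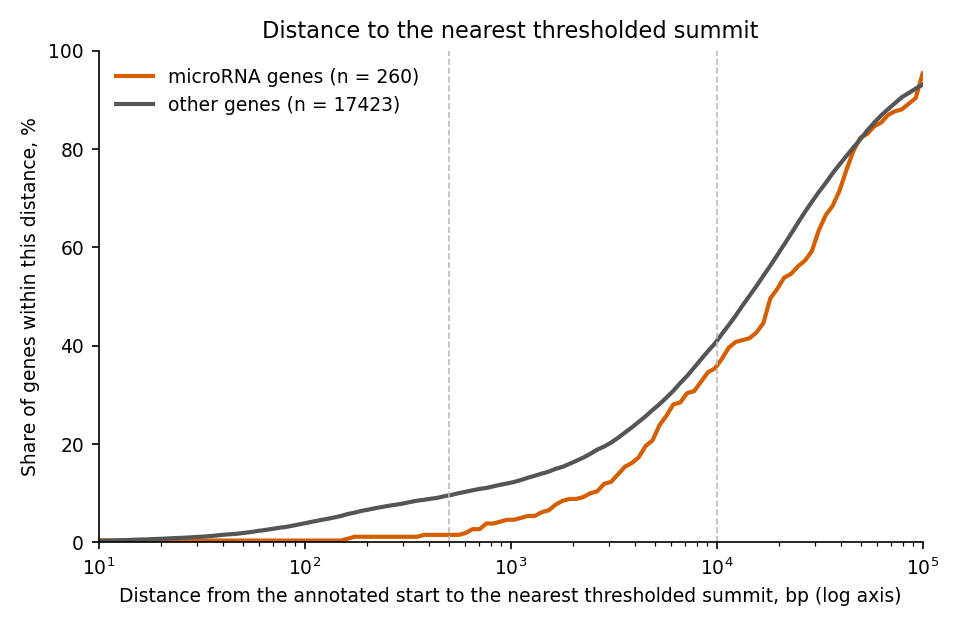
Share of microRNA genes (orange, n = 260) and of other genes (grey, n = 17423) whose nearest thresholded summit lies within a given distance in bp (log axis) of the annotated start, with dashed lines at 500 bp and 10 kb. At 500 bp the orange line is at 1.54% and the grey line at 9.57%, and at 10 kb they are at 36.2% and 40.9%.

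The 4 genes with a close summit all lay inside a host gene, 3 of them in a protein-coding one. The signal is the value the authors deposited per region, with no stated normalization, and its rank is within the thresholded list. The summit nearest to any hairpin start was at mir-4962, which lies at chrX:3777382-3777505 on the plus strand, in an intron of Tlk, a Tousled-like kinase with roles in chromatin assembly. The summit stood 2 bp downstream of the hairpin start and 1325 bp downstream of the nearest Tlk TSS, with a signal of 171.3 and rank 597. The overlapping region had a signal of 100.3 in replicate 1 and 66.4 in replicate 3, so replicate 1 was the higher. The peak region covered the whole hairpin, whose first 53 bases are the capitals in its sequence above.

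At mir-4949, chr3R:31219274-31219372 on the minus strand, the summit lay 155 bp upstream of the hairpin and 32 bp downstream of a TSS of its host ATPsynC, which encodes a subunit of mitochondrial ATP synthase. Its signal was 129.1 in the thresholded list, 79.7 in replicate 1 and 48.4 in replicate 3. The hairpin starts only 187 bp from that TSS, so a peak at the host promoter and one at the hairpin cannot be told apart there. Of the 4 genes, only mir-4962 and mir-4949 had a peak region that overlapped the hairpin itself.

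The strongest of the 4 peaks belonged to mir-9378, chr2L:10751877-10751938 on the minus strand, in an intron of CG17124. The summit was 166 bp upstream of the hairpin and 4221 bp inside the host, with a signal of 360.1 and rank 110. Replicate 1 gave 202.6 and replicate 3 gave 158.6. A second, weak peak with a signal of 83.4 stood at the TSS of CG17124 itself, 4356 bp from the hairpin.

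The last of the 4 was mir-14, chr2R:9553762-9553824 on the plus strand, a microRNA known to limit cell death and to act in ecdysone signalling, which lies in an exon of lncRNA:CR43651. One summit was 375 bp downstream of the hairpin start with a signal of 91.7 (60.0 in replicate 1 and 40.3 in replicate 3). A second stood 734 bp upstream of the hairpin and 184 bp from the TSS of the host RNA, with a signal of 119.2 (71.5 in replicate 1 and 59.6 in replicate 3). Both summits were higher in replicate 1, and the one at the TSS was the stronger. Just inside the 500 bp limit were thus mir-14 and mir-9378, and just outside it mir-92a at 566 bp and mir-4975 at 614 bp.

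**Figure D2:**
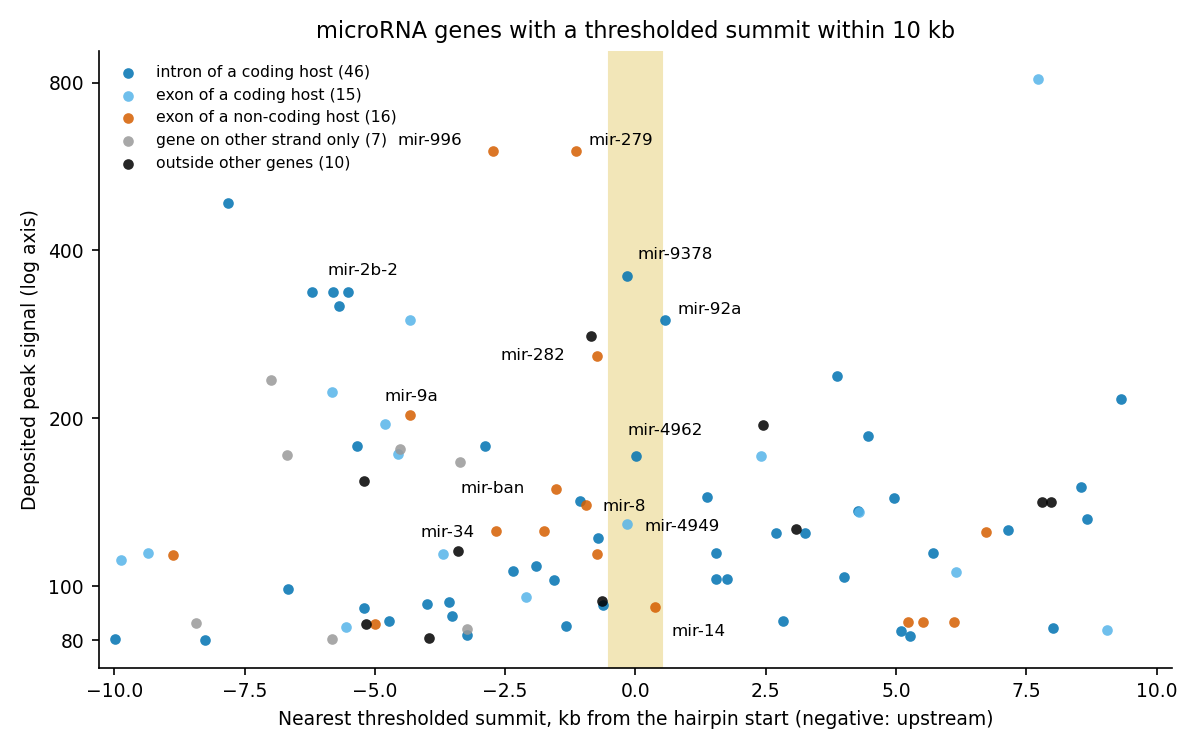
Deposited signal (log axis) of the nearest thresholded peak against its distance in kb from the hairpin start, negative upstream, for the 94 microRNA genes with a summit within 10 kb, coloured by where the hairpin lies. The shaded band marks 500 bp on either side and holds 4 genes, and mir-279 and mir-996 share the peak of signal 603.1.

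Between 500 bp and 2 kb, the strongest peak was that of mir-279, chr3R:29215585-29215684, a microRNA known for keeping carbon dioxide sensing neurons out of the maxillary palp. Its summit lay 1135 bp upstream of the hairpin and 112 bp upstream of the TSS of lncRNA:CR31044, the non-coding transcript that holds mir-279 and, 2734 bp from the same summit, mir-996. The signal was 603.1, rank 29 of 2712, with 304.3 in replicate 1 and 296.7 in replicate 3, which differed little. The next peak, 4574 bp downstream of the mir-279 start with a signal of 389.4, stood 13 bp from a TSS of eEF1gamma, a translation elongation factor.

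At mir-92a, chr3R:25646506-25646600, the summit was 566 bp downstream of the hairpin start and 174 bp upstream of an internal TSS of its host jigr1. Its signal was 300.2, with 141.1 in replicate 1 and 159.3 in replicate 3, so here replicate 3 was the higher. The same peak is the nearest to mir-92b, the other hairpin in this host, which lies downstream of it. The jigr1 transcript from that internal TSS spans neither hairpin, and the nearest TSS of a jigr1 transcript that spans mir-92a is 6713 bp from it.

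Upstream of mir-282, chr3L:3251022-3251118, the summit was 743 bp from the hairpin and 315 bp upstream of an internal TSS of lncRNA:CR43626. The transcript from that TSS ends short of the hairpin, and the transcripts that span it start 1432 bp or more upstream. The signal was 258.9, with 142.4 in replicate 1 and 124.6 in replicate 3. At mir-ban, chr3L:642208-642288, which encodes bantam, a growth-promoting and anti-apoptotic microRNA, a summit of signal 149.7 lay 1525 bp upstream of the hairpin, 59.6 in replicate 1 and 86.2 in replicate 3. Another, of signal 88.8, stood 64 bp upstream of a TSS of the bantam host lncRNA:CR43334, with 50.5 in replicate 1 and 36.8 in replicate 3. Both replicates put the peak inside the host above the peak at its TSS.

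Other summits between 500 bp and 2 kb sat near the TSS of a host or of a neighbouring gene. That of mir-308 was 712 bp from the hairpin and 2 bp from a TSS of its host RpS23, a ribosomal protein of the small subunit, with a signal of 122.2. That of mir-2493 was 1068 bp away and 1 bp from the TSS of CG42788 (142.3), and that of mir-4975 was 89 bp from a TSS shared by its hosts chk and CG45092 (92.5). The peak nearest to mir-281-2 and mir-281-1, 1541 and 1759 bp downstream of them, had a signal of 103.0. It was 28 bp from a TSS of the spliceosome gene SmD3 and 215 bp from a TSS of their host Oda. The Oda transcript from that TSS spans neither hairpin. At mir-8, a member of the conserved miR-200 family that limits Wingless signalling, the nearest summit was 955 bp upstream and 212 bp from a TSS of lncRNA:CR43650 (139.9), and 2 further peaks lay within 10 kb.

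Some members at this distance had peaks away from any annotated TSS. The nearest summits of mir-375 (732 bp, signal 114.1), mir-4981 (844 bp, 280.5), mir-4985 (1336 bp, 84.7), mir-9377 (1365 bp, 144.5), mir-2492 (1547 bp, 114.7) and mir-277 (1763 bp, 125.8) were each more than 500 bp from the nearest TSS of a gene that is not a microRNA gene. That of mir-2496 (639 bp, 94.1) lay 296 bp from a TSS of lncRNA:CR45478. Among all 22 different peaks that were nearest to a microRNA gene within 2 kb, 11 lay within 500 bp of a TSS of such a gene, against 54.0% of all 2712 thresholded peaks. Peaks close to hairpins were thus at a promoter about as often as thresholded peaks in general.

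The number of peaks within 10 kb differed between microRNA genes, and it was not counted for other genes. Within 10 kb there were 156 pairs of a microRNA gene and a peak, from 137 different peaks, and 39 genes had at least 2. The highest number, 6, was reached by mir-375, mir-4943 and mir-ban. At mir-4943 and at mir-ban, 2 of the 6 peak regions overlap each other, so these are not 6 separate sites. Around mir-ban the 6 peaks had signals between 88.8 and 247.4, and 4 of them lay upstream of the hairpin beyond its nearest summit. The last members inside the 10 kb limit were mir-4956 (9869 bp) and mir-13b-2 (9990 bp), and the first outside it were mir-9376 (10020 bp) and mir-252 (10188 bp).

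**Figure D3:**
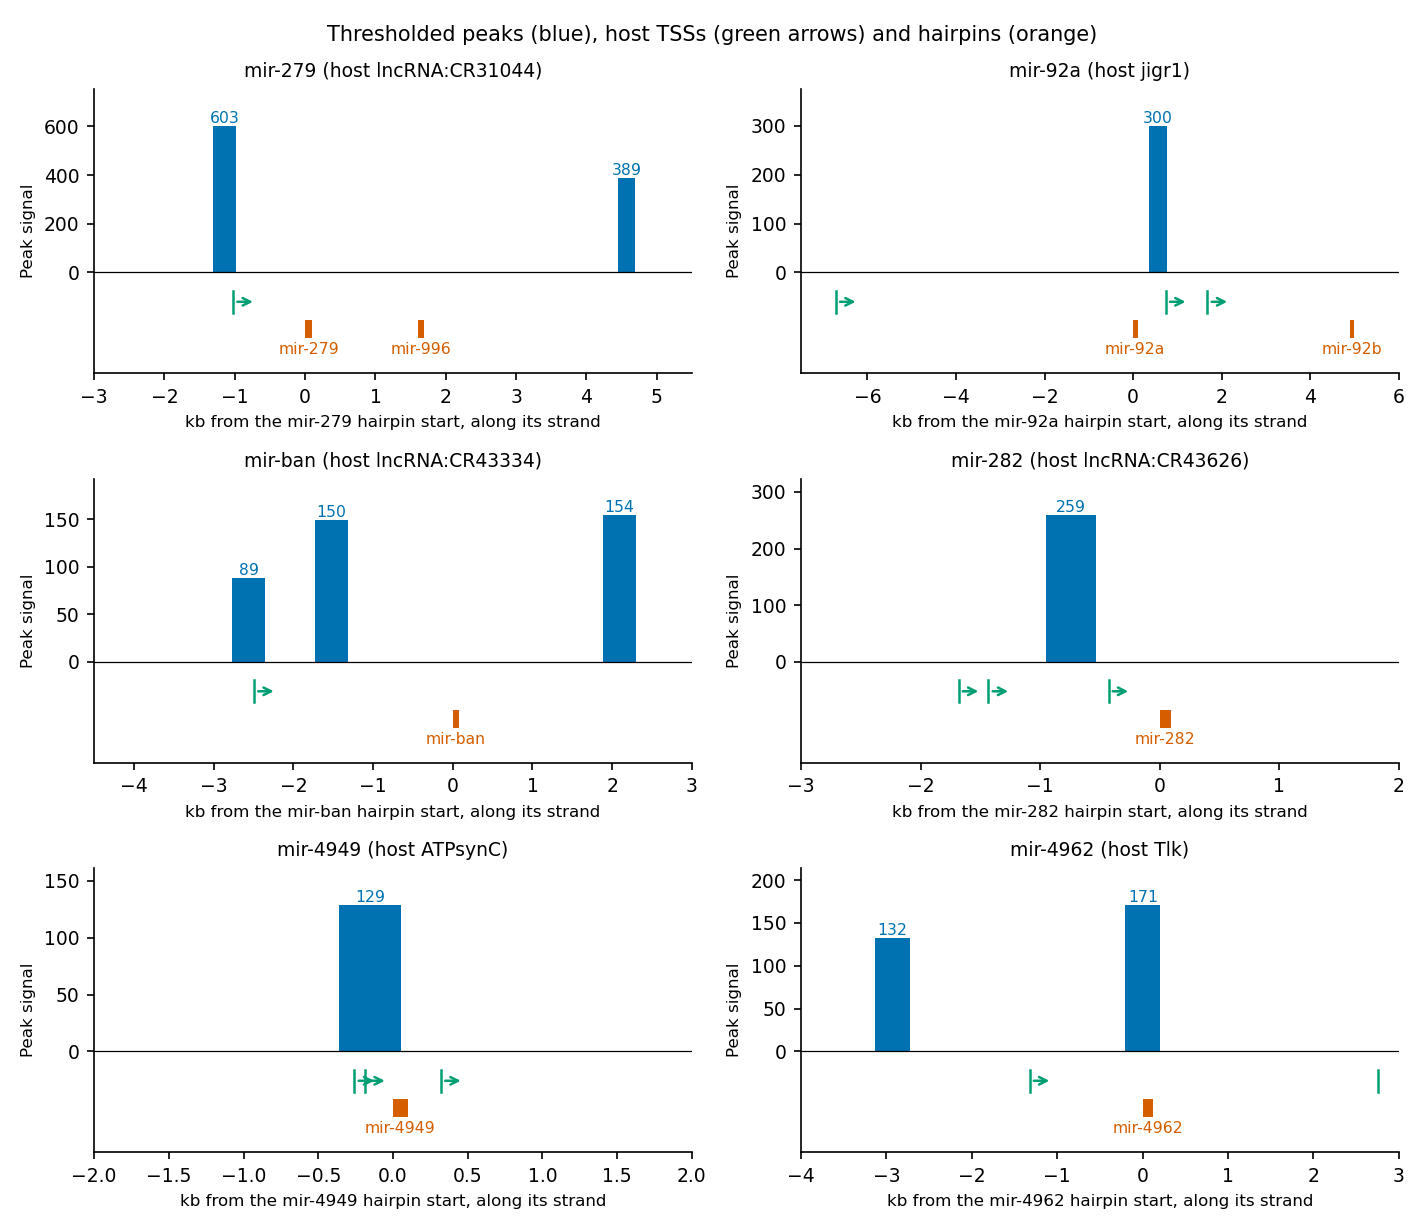
Thresholded peaks (blue, height is the deposited signal), TSSs of the host genes (green arrows, in the direction of transcription) and hairpins (orange) around 6 microRNA genes, in kb from the hairpin start along its strand. The peaks of signal 603.1 and 258.9 stand at TSSs upstream of mir-279 and mir-282, that of mir-92a stands between the hairpins of mir-92a and mir-92b, and that of mir-4962 stands over the hairpin.

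Where the hairpin lies was compared next, with the host defined as a gene on the same strand that spans the whole hairpin. Of the 260 genes, 182 lay in such a host, and 4 of these (2.20%, 0.602% to 5.53%) had a summit within 500 bp, against 0 of the 78 without one (an upper exact limit of 4.62%). Within 10 kb the counts were 77 of 182 (42.3%, 35.0% to 49.8%) in a host and 17 of 78 (21.8%, 13.2% to 32.6%) outside one, against 40.9% of other genes, which lies inside the first interval and above the second. Of the 78 unhosted genes, 37 belong to clusters and share their surroundings. The rule of 1 gene per cluster was applied to this split after seeing the data. With it the counts were 67 of 155 (43.2%, 35.3% to 51.4%) in a host and 15 of 48 (31.3%, 18.7% to 46.3%) outside one. These intervals overlap and both hold 40.9%. By place, 46 of 100 hairpins in an intron of a protein-coding host had a summit within 10 kb, 15 of 36 in its exons or in mixed positions, 16 of 43 in an exon of a non-coding host, and 0 of 3 in an intron of a non-coding host. Of hairpins inside a gene on the other strand only, 7 of 27 did, and of hairpins outside other genes 10 of 51. Among the hosted hairpins, 34 fill a host intron to within 10 bp at each end, the layout of mirtrons, which are released by splicing in place of Drosha. None of the 34 had a summit within 2 kb (0 of 34, upper exact limit 10.3%). By the same rule 21 of all 182 hosted hairpins did (11.5%, 7.29% to 17.1%), and 16.3% of other genes. Within 10 kb 14 of the 34 had one (41.2%), against 40.9% of other genes.

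At the TSSs of the host genes, peaks were more frequent than at hairpins. Of 165 hosts, 39 (23.6%, 17.4% to 30.9%) had a thresholded summit within 500 bp of a TSS, against 11.0% of all genes other than microRNA genes. Among protein-coding hosts 32 of 128 did (25.0%, 17.8% to 33.4%), against 12.6% of all protein-coding genes. These hosts are long, with a median of 14094.5 bp and 2 TSSs, against 2166 bp and 1 TSS for all protein-coding genes, and the part of gene length and TSS number in the difference was not tested. At the outermost TSS alone the count was 20 (15.6%, 9.81% to 23.1%), against 10.9% of all protein-coding genes at that site, a share inside the interval. With TSSs of transcripts that span a hairpin only, a rule added after seeing the data, it was 27 (21.1%, 14.4% to 29.2%). The stronger 50% of the peaks gave 21 of 128 (16.4%), and the share of all protein-coding genes was not computed with that shorter list. At annotated starts, the share of other genes fell from 9.57% with the whole list to 4.94% with the shorter one.

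Among non-coding hosts, 7 of 37 (18.9%, 7.96% to 35.2%) had a summit within 500 bp of a TSS, against 4.80% of all non-coding RNA genes. These hosts had a median of 6436 bp and 1 TSS, values that were not computed for all non-coding RNA genes. Here too the part of gene length and TSS number was not tested. At the outermost TSS alone the count was 4 (10.8%, 3.03% to 25.4%), against 4.48%, and this share lies inside the interval. With TSSs of transcripts that span a hairpin it was 6, as lncRNA:CR43626 dropped out. The 7 were lncRNA:CR31044 (mir-279 and mir-996), lncRNA:CR43626 (mir-282), lncRNA:CR43650 (mir-8), lncRNA:CR43651 (mir-14), lncRNA:CR43334 (mir-ban), lncRNA:Hsromega, a heat shock induced RNA that holds mir-4951, and lncRNA:CR43314, which holds mir-bft, listed by RefSeq with the synonym mir-263a. The 5 of them beyond the 15 strongest hosts were named after their values were seen. The signal at lncRNA:Hsromega was 116.7, with 77.9 in replicate 1 and 46.0 in replicate 3. The signal at lncRNA:CR43314 was 81.7, with 46.2 in replicate 1 and 36.2 in replicate 3, close to the lowest signal of the thresholded list, 79.8.

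The strongest peak at a protein-coding host was at spi, which encodes the EGF receptor ligand Spitz and holds mir-2a-1, mir-2a-2 and mir-2b-2. Its signal was 337.0, with 172.2 in replicate 1 and 162.7 in replicate 3. It lay 189 bp upstream of a spi TSS and 5512 bp upstream of mir-2b-2, the nearest of these hairpins. Peaks at jigr1 (300.2) and at for, a cyclic GMP-dependent protein kinase that holds mir-4972 (285.2, with 127.7 in replicate 1 and 158.2 in replicate 3), came next, and both stood at TSSs of transcripts that do not span the hairpins. At bun, a TSC-22 family gene that holds mir-967, the signal was 240.5, with 133.2 in replicate 1 and 106.1 in replicate 3.

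Further down the order of signal were PAPLA1, a phospholipase gene (226.0, mir-4984), Btk, a tyrosine kinase (199.6, mir-2b-1), CG5953 (195.6, mir-4943), MRP, a multidrug-resistance transporter (178.6, mir-9382), CG3764 (174.0, mir-2500), Nrx-1, a synaptic adhesion protein (173.3, mir-4952) and Amun (172.6, mir-9370). The Btk peak, 19121 bp from mir-2b-1, stood at a TSS whose transcript does not span that hairpin. The hosts CG7029 and Usp12-46, which hold mir-4953, shared 1 peak of signal 198.6 that lay nearer to a TSS of rumi. In all, the 39 hosts shared 36 different peaks, and for 35 of the hosts their own TSS was the nearest or tied. Signals at these hosts ran from 80.3 to 603.1 with a median of 137.9, against a median of 115.1 over all thresholded peaks. The host values take the strongest peak where a host had several and count a shared peak once per host. The median over all peaks counts every peak once, so these medians are not alike. Of the 182 hosted microRNA genes, 41 lay in a host with such a peak.

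**Figure D4:**
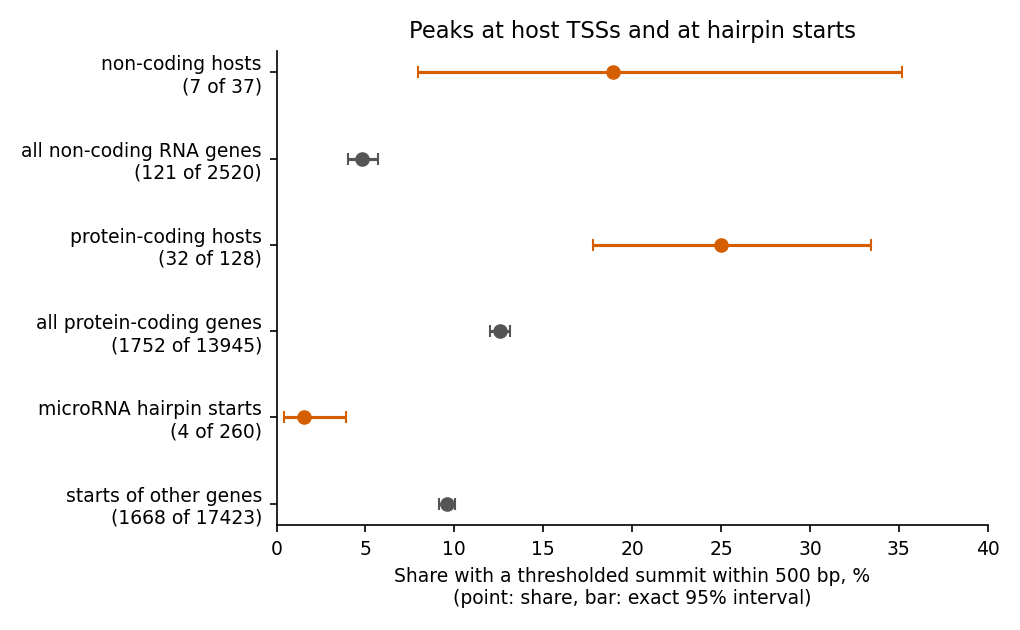
Share of non-coding hosts, protein-coding hosts and microRNA hairpin starts (orange) with a thresholded summit within 500 bp of a TSS or hairpin start, each drawn over a comparison share (grey): all non-coding RNA genes, all protein-coding genes, and other genes at their annotated starts. Points are shares and bars exact 95% intervals, and non-coding hosts stand at 18.9%, higher than the grey 4.80%, protein-coding hosts at 25.0%, higher than 12.6%, and hairpin starts at 1.54%, lower than 9.57%.

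Clustered microRNA genes, those with a start within 10 kb of another on the same strand, had no summit close to a hairpin. The 79 clustered genes formed 22 clusters, and 0 of the 79 had a summit within 500 bp (upper exact limit 4.56%), against 4 of 181 that were not clustered (2.21%, 0.605% to 5.56%) and 9.57% of other genes. Within 10 kb the counts were 21 of 79 (26.6%, 17.3% to 37.7%) and 73 of 181 (40.3%, 33.1% to 47.9%), with intervals that overlap, against 40.9% of other genes. The clustered genes within 2 kb of a summit were mir-92a, mir-279, mir-281-1, mir-281-2 and mir-277. Members of a cluster share their surroundings, so they are not independent, and 9 of the 22 clusters had a summit within 10 kb of a member.

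The largest cluster holds 12 genes over 10780 bp of the X chromosome, from mir-972 to mir-979, and its nearest thresholded summit was 36174 bp away from mir-979. The cluster of mir-309, mir-3, mir-4, mir-286, mir-5 and the mir-6 copies, known for clearing maternal messenger RNAs in the early embryo, had its nearest summit 28598 bp away, and none of its 8 genes had a pooled relaxed summit within 500 bp. The 3 genes of the let-7 complex, mir-100, mir-let7 and mir-125, which act in later developmental timing, shared a weak peak of signal 86.3, 5230 bp from mir-125. The mir-310 cluster was 15930 bp from its nearest summit, at mir-992.

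The microRNA genes on a list of known genes lay at widely different distances from peaks. Among those inside 10 kb, mir-34 was 2677 bp from the peak of mir-277 (125.8), mir-11, in E2f1, was 3250 bp from a peak at a TSS of InR, the insulin receptor (124.6), and mir-33 was 3575 bp from a peak 451 bp from the TSS of its host SREBP, a regulator of lipid synthesis (93.6). A summit of signal 202.7 lay 4331 bp upstream of mir-9a, which sharpens sense organ specification (105.7 in replicate 1 and 97.6 in replicate 3). Peaks near mir-7 (4732 bp, 86.6) and mir-184 (8879 bp, 113.5) were weaker. Among those beyond 10 kb were mir-278 (22199 bp), mir-12 (39742 bp), mir-10 in the Antennapedia complex (46671 bp), the neuronal mir-124 (52098 bp), mir-iab-4 and mir-iab-8 of the bithorax complex (57405 and 57472 bp), the muscle microRNA mir-1 (72406 bp) and mir-276a (150844 bp). The hairpins mir-9b, mir-79, mir-306 and mir-9c in the host grp lay between 17614 and 18434 bp from theirs.

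In the pooled relaxed list of 30000 regions, which keeps weak background regions, 79 of 260 microRNA genes (30.4%, 24.9% to 36.4%) had a summit within 500 bp, against 45.8% of other genes. Of these 79, 43 also had a relaxed summit within 500 bp in both replicates' own lists. The 88 different regions had a median signal of 33.3, against 33.6 for the whole relaxed list, and 45 of the 88 were under the list's median. Most therefore lay at the level of the list's ordinary regions. Among genes with no thresholded summit within 500 bp, the highest pooled signals were at mir-966 (76.3), mir-281-1 and mir-281-2 (74.0, 1 region for both), mir-2496 (73.7) and mir-275 (70.8). At mir-966, in an intron of Pfas, the regions had a signal of 45.5 in replicate 1 and 28.2 in replicate 3.

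The replicates differed at peaks near microRNA genes by about as much as over the whole list. The peaks compared were the 22 different ones that were nearest to a microRNA gene within 2 kb. Their log2 ratio of the signal in replicate 1 over that in replicate 3 had a median of 0.17 (SD 0.45). It ran from -0.53 at mir-ban to 1.21 at mir-2492. It was above 0 for 17 of the 22. Over all 2712 peaks the median was 0.18 (SD 0.56), and 1770 were higher in replicate 1. At mir-2492 the values were 79.7 in replicate 1 and 34.4 in replicate 3. As the signals have no stated normalization between the replicates, a shift common to all peaks has no reading for a single gene.

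**Figure D5:**
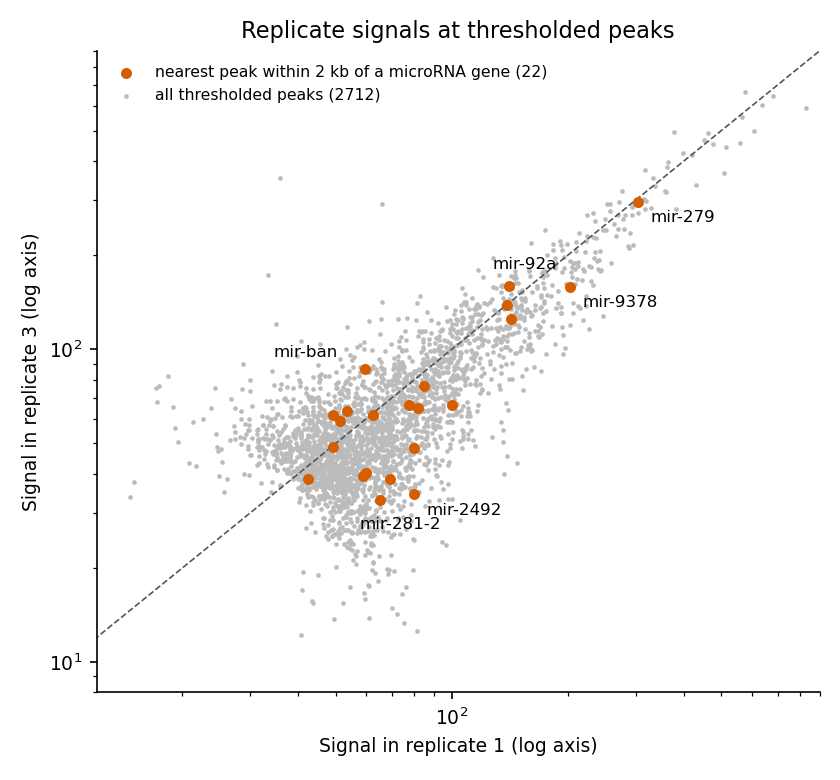
Signal in replicate 3 against signal in replicate 1 (both log axes) for the 22 peaks nearest to a microRNA gene within 2 kb (orange) and for all 2712 thresholded peaks (grey), with a dashed line at equal signal. The orange points lie among the grey ones, and mir-2492 and mir-ban mark the ends of their range, at log2 ratios of 1.21 and -0.53.

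The sequences around the summits were searched on both strands, in 101 bp windows, for 4 words: the forkhead core TGTTTAC, the E-box CATATG, the homeodomain core TAATTA and the DNA replication-related element. Among the windows of all 25 different peaks within 2 kb of a microRNA gene, the forkhead core was in 1 (4.00%), against 5.38% of all 2712 peaks. It stood at mir-4962, inside the hairpin, in the stretch that gives the mature product shown above. The E-box was in 2 of 25 (8.00%), at mir-9378 and mir-4981, against 4.13% of all peaks. The homeodomain core was in 2 (8.00%), at mir-2496 and mir-8, against 6.56%, and the DNA replication-related element was in 0, against 2.10%. Counts this small differ from the shares over all peaks by about 1 window.

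Seeds were compared over all 481 mature products of the 260 genes, which carry 426 different seeds, 33 of them shared by at least 2 genes. The largest seed family, AUCACAG, has 14 genes, mir-2a-1 and mir-2b-2 among them, and 6 had a summit within 10 kb, a share near the 40.9% of other genes. Among these 6 are the spi hairpins, which share their peaks, of signal 337.0 and 139.3. The family of mir-92a and mir-92b (seed AUUGCAC) also holds mir-310, mir-311, mir-312 and mir-313, and 2 of its 6 genes, those in jigr1, had a summit within 10 kb. The family of mir-279 and mir-996 (seed GACUAGA) also holds mir-286, and 2 of its 3 genes had one, through the peaks of signal 603.1 and 389.4 that both share.

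The genes that make and use microRNAs were examined with a list of 30, all matched in the annotation. Of these, 8 (26.7%, 12.3% to 45.9%) had a thresholded summit within 500 bp of a TSS, against 11.0% of all genes other than microRNA genes. Over all protein-coding genes the share by the same rule was 12.6%, which lies inside the interval. Some of the 30 have several TSSs, up to 6 at Hsc70-4, and the part of TSS number was not tested. None of the nuclear and cytoplasmic processing genes drosha, pasha, Dcr-1 and loqs did. AGO1, the Argonaute that holds most microRNAs, had a peak of signal 130.5 (72.1 in replicate 1 and 54.6 in replicate 3) that also lay near TSSs of mRpL53 and CG33155. AGO2, which acts mainly with small interfering RNAs, had one of 83.2, and r2d2, the partner of Dicer-2, one of 209.8 that lay nearer to a TSS of Herp. In the silencing complex, gw (the GW182 protein) had a signal of 130.5, the helicase gene me31B 394.3 (219.6 in replicate 1 and 178.0 in replicate 3), and the deadenylase gene Pop2 152.6. The chaperone gene Hsp83 had 348.0. Ranbp21, an exportin gene, had 113.4 (30.0 in replicate 1 and 73.5 in replicate 3), from a peak that also lay near a TSS of Elys. The strongest of these 8 peaks, at me31B, ranked 86th in the list.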

How the data were processed

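Peak lists of 2 ChIP-seq samples (1 group, biological replicates 1 and 3, per the labels) were used as deposited. Per the notes deposited with the files, the relaxed lists came from each replicate or from both pooled, with a control, and thresholding used the irreproducible discovery rate (optimal set). Which aligner and peak caller were run is not given in the sources used here. Each region has a deposited signal, with no stated normalization, and a deposited −log10 of the q-value, which was not used for ranking. Read depth is unknown. The lists in the dm3 build were not used, and all dm6 regions ended within the arms of the Release 6 genome.

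Distances run from the deposited summit to the gene start (Ensembl release 115), positive downstream. Entries for mature microRNA products and transposons were left out of the gene set, and RefSeq gave the same 260 starts. Replicate values are those of the relaxed region of each replicate that overlaps the peak and has the nearest summit. Where a replicate is left out, its list is replaced by the 2712 regions of highest signal of the other. Intervals are exact (Clopper-Pearson, 95%) and cover counting error only: regions and genes are not replicates, and no test was run. The members, the list of 30 pathway genes and the list of known genes were chosen with earlier results of these data known.

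Named genes were those with a summit within 500 bp, the next 15 by distance up to 2 kb, the 15 hosts of highest signal, the known genes, the largest cluster, members of counts of 5 or fewer, the 2 on each side of a limit, the 5 strongest relaxed-only genes and the pathway genes with a peak. The search for the nearest summit was checked on simulated data with 40 summits planted near microRNA starts. In 40 of 40 cases the distance equalled that of a direct search and was no larger than the planted one. The direction, upstream or downstream, was not compared. Analyses used Python 3.11.15, pandas 2.3.3, numpy 2.4.6 and scipy 1.17.1. Alternatives were other windows, limits and cluster gaps, the stronger 50% of the peaks, each replicate left out, 1 gene per cluster, overlap with the hairpin, the outermost TSS, TSSs of transcripts that span a hairpin, and the RefSeq annotation.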

Additional observations from a re-analysis of the deposited data

How the results depend on the processing

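A result was called the same where its count stayed within 1.5 times the one reported, or stayed 0 where 0 was reported. The replicate ratio was called the same where it changed by less than the SD. By these rules, 46 of the 63 alternatives computed were the same. Those for hosts split into non-coding and protein-coding, for transcripts that span a hairpin, and for hosted and unhosted genes with 1 gene per cluster, were chosen after seeing the data. With a window of 1000 bp, 12 microRNA genes had a thresholded summit, of which 1 was clustered, 6 were in an intron of a host and 2 were outside any host, and overlap with the hairpin left 2. A window of 200 bp left 37 genes with a pooled relaxed summit, and a limit of 5 kb left 55 with a thresholded one. The share of other genes with a thresholded summit moved as well. It was 6.63% at 200 bp, 9.57% at 500 bp, 12.1% at 1000 bp, 26.9% at 4887 bp and 28.1% at 5281 bp. For relaxed summits and for host TSSs, the share over all genes at 200 bp was not computed. For hosts, a window of 200 bp gave 23 in all, 4 non-coding and 19 protein-coding, and the outermost TSS alone gave 24 in all, 4 non-coding and 20 protein-coding. The stronger 50% of the peaks left 21 protein-coding hosts, and 4.94% of other genes at their annotated starts. With 1 replicate left out at a time, the genes within 500 bp ranged from 3 to 8, those in clusters from 0 to 1 and those outside any host from 0 to 1. No paired analysis was possible because the data hold 1 group only. Read depth is unknown, so no count can be set against it, and an interval around a count of 4 is wide.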
